A study of Drosophila melanogaster with 24 samples.

Results

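Small PDF neurons of the adult fly brain were compared between ZT12 and ZT0, the start of the dark and of the light phase of a 12 h light and 12 h dark cycle. These cells release the neuropeptide PDF and carry a circadian clock. The comparison takes every array of small PDF neurons, 2 at ZT12 and 2 at ZT0, out of 24 arrays in the series. It covers 8318 probe sets, those outside the array's controls that reached log2 5 on 2 or more of the 24 arrays. ZT is zeitgeber time in hours, with ZT0 at lights on by convention. The samples came from adult brains of male and female flies in a yw background, about 50 brains each, dissociated with protease, after which GFP-positive cells were collected by hand. The series also holds large PDF neurons and ELAV neurons, which stand for neurons in general, of the same background at ZT0 and ZT12 (3 arrays per time). Large PDF neurons at ZT6 and ZT18, and those of male per01 flies, mutant for the clock gene per, at ZT0 and ZT12, entered only the estimate of spread (2 arrays per group). The labels name the GFP marks as pdf-GFP and ELAV-GFP and do not name the driver lines further.

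In the fly clock CLK and CYC switch on per and tim, whose proteins return to the nucleus and stop that activation. They also switch on vri and Pdp1, whose products repress and activate Clk in a second loop. Small PDF neurons are known for keeping rhythms going in darkness, and their terminals in the dorsal brain change shape over the day.

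Unless a sentence names a fold, values are log2 GCRMA values, differences are ZT12 minus ZT0 on that scale, and ± is the standard error of limma's fit. A call is an adjusted p below 0.05 by limma with Benjamini-Hochberg adjustment over the 8318 probe sets. Values under 5 were treated as near background, so that a difference reaching under 5 is partly set by background. Where both arrays of the lower time lay under 5, values under 5 were set to 5 and the fold between the means is a lower bound, written as at least. That bound is left out where dropping 1 array moves it by more than 1.5-fold. The labels call the replicates biological, and the p-values measure the spread between these samples of sorted cells.

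As PDF clock neurons the cells held against their markers. Pdf was at 15.8 to 15.9 on the 4 small PDF arrays, and tim, Clk and cry were at 8.7 or more on each of them. Large PDF arrays at ZT0 had means of 15.92 for Pdf, 12.5 for tim, 9.7 for Clk and 11.51 for cry. These markers thus do not by themselves tell small from large PDF neurons. Pdfr, the gene of the PDF receptor, was near background at ZT0 and higher at ZT12. The replicate arrays correlated at 0.929 at ZT0 and 0.904 at ZT12, and ZT12 replicate 2 correlated at 0.908 with ZT0 replicate 1. Markers of other cells differed between single arrays. Gad1, the GABA synthesis gene, was at 7.11 on ZT0 replicate 1 and at 2.99 or less on the other 3 arrays. The other listed GABA genes did not follow it, with VGAT at 5.28 to 6.25 and Gat at 2.32 to 2.42. ChAT, the acetylcholine synthesis gene, was at 7.93 on ZT0 replicate 2, at 6.90 on ZT12 replicate 1 and under 3 on the others. ChT was also highest on those arrays, at 7.81 and 7.73, and was at 5.68 on ZT0 replicate 1 and 4.49 on ZT12 replicate 2. VAChT was at 5.41 and 5.18 at ZT0 and at 3.29 and 3.2 at ZT12. The neuropeptide gene AstC ran from 3.96 to 14.68 on the ZT0 pair and was at 10.65 and 12.68 at ZT12. The 7 genes listed for large PDF neurons summed to 9.39 on ZT12 replicate 1 and to 7.06 to 7.48 on the other 3 arrays. Their sum was 11.22 to 12.03 on large PDF arrays and 11.03 to 12.61 on ELAV arrays, so it does not tell these kinds apart. On ZT12 replicate 1 Cpr60D was at 7.37, Tsp42Eo at 8.02 and Sodh2 at 7.73, while mael, CAP, Inx7 and 18w were at 2.36 to 3.73. Some single genes do separate large PDF from ELAV arrays. Cpr60D was at 8.11 to 10.71 on large PDF and 2.21 to 3.17 on ELAV arrays, and Tsp42Eo at 8.52 to 9.82 and 2.44 to 3.41. The same held for mael (7.68 to 8.37 and 2.68 to 5.41) and Inx7 (7.29 to 8.93 and 3.4 to 6.45). Of 10 glial genes 6 stayed under 5 on all 4 arrays, repo among them, and the list's sum of 11.91 to 12.71 came with the citrate transporter gene Indy at 11.74 to 12.68. Of 11 haemocyte genes 8 stayed under 5 on all 4 arrays, Hml and NimC1 among them. The other 3 were crq at 6.92 to 7.94, PPO2 at 4.35 to 6.27 and Pxn, at 8.17 and 5.89 at ZT0 and at 9.94 and 6.33 at ZT12. The sum of the 11 was 10.39 on ZT12 replicate 1 and 8.43 to 9.03 on the other 3 arrays, against 11.13 to 12.18 on large PDF arrays. The part that these differences between arrays have in the results below was not tested.

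**Figure D1:**
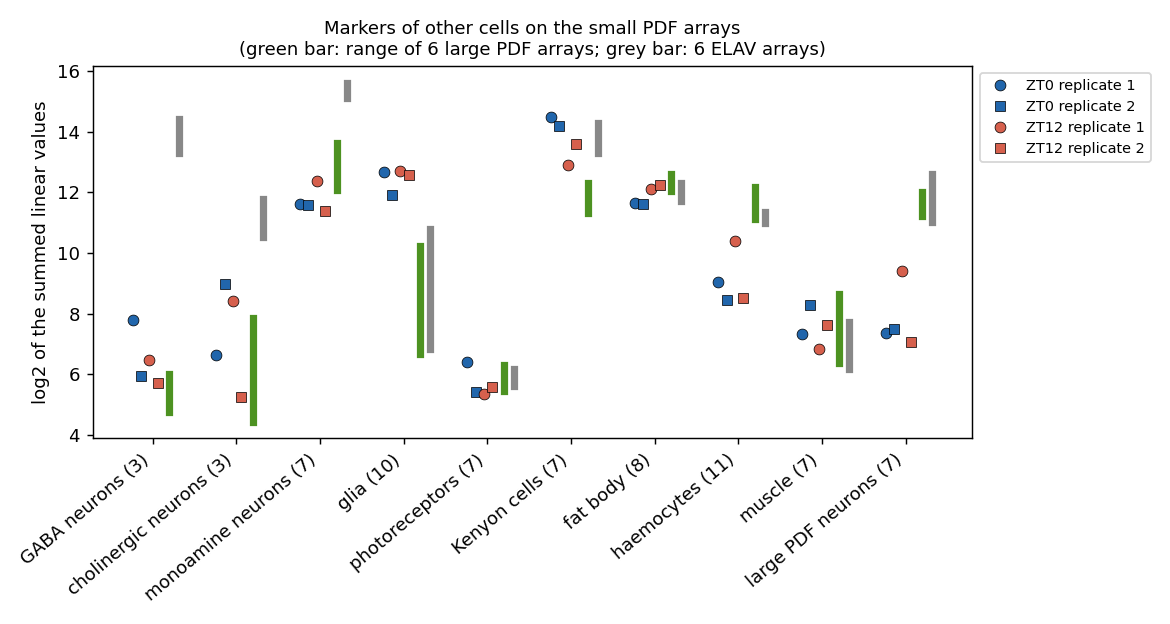
Summed level of marker genes of other cell types on the 4 small PDF arrays. The vertical axis is log2 of the sum of the linear values of each list's genes on the array, the number of which stands in brackets. Bars give the range over 6 large PDF arrays (green) and 6 ELAV arrays (grey) at ZT0 and ZT12. The sum of large PDF markers stands at 9.39 on ZT12 replicate 1, above the other 3 small PDF arrays.

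Between morning and evening 282 of the 8318 probe sets changed (3.39%). At ZT12 114 were higher (1.37%) and 168 lower (2.02%), and they stood for 91 and 144 named genes. The called rises had a median of 2.93 (from 1.24 to 7.23), and the called falls a median of -2.43 (from -1.23 to -7.82), while the median over all probe sets was -0.01. A difference of 8-fold or more was found for 53 of the rises and 52 of the falls. Both ZT0 arrays were under 5 for 41 rises, and both ZT12 arrays were under 5 for 44 falls. In all 282 the 2 arrays of one time lay on the same side of the other 2, an ordering that 18.4% of all probe sets showed upward and 21.5% downward. With only the 4 small PDF arrays in the fit no probe set was called, while 877 had an unadjusted p under 0.05 by limma, so the calls rest on the spread shared by all 24 arrays. Leaving out 1 small PDF array left 133 to 254 calls, the lowest number without ZT0 replicate 2. Without ZT12 replicate 1 there were 156 and without ZT0 replicate 1 there were 166. In all 4 of these fits 74 probe sets were called, 36 higher and 38 lower.

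**Figure D2:**
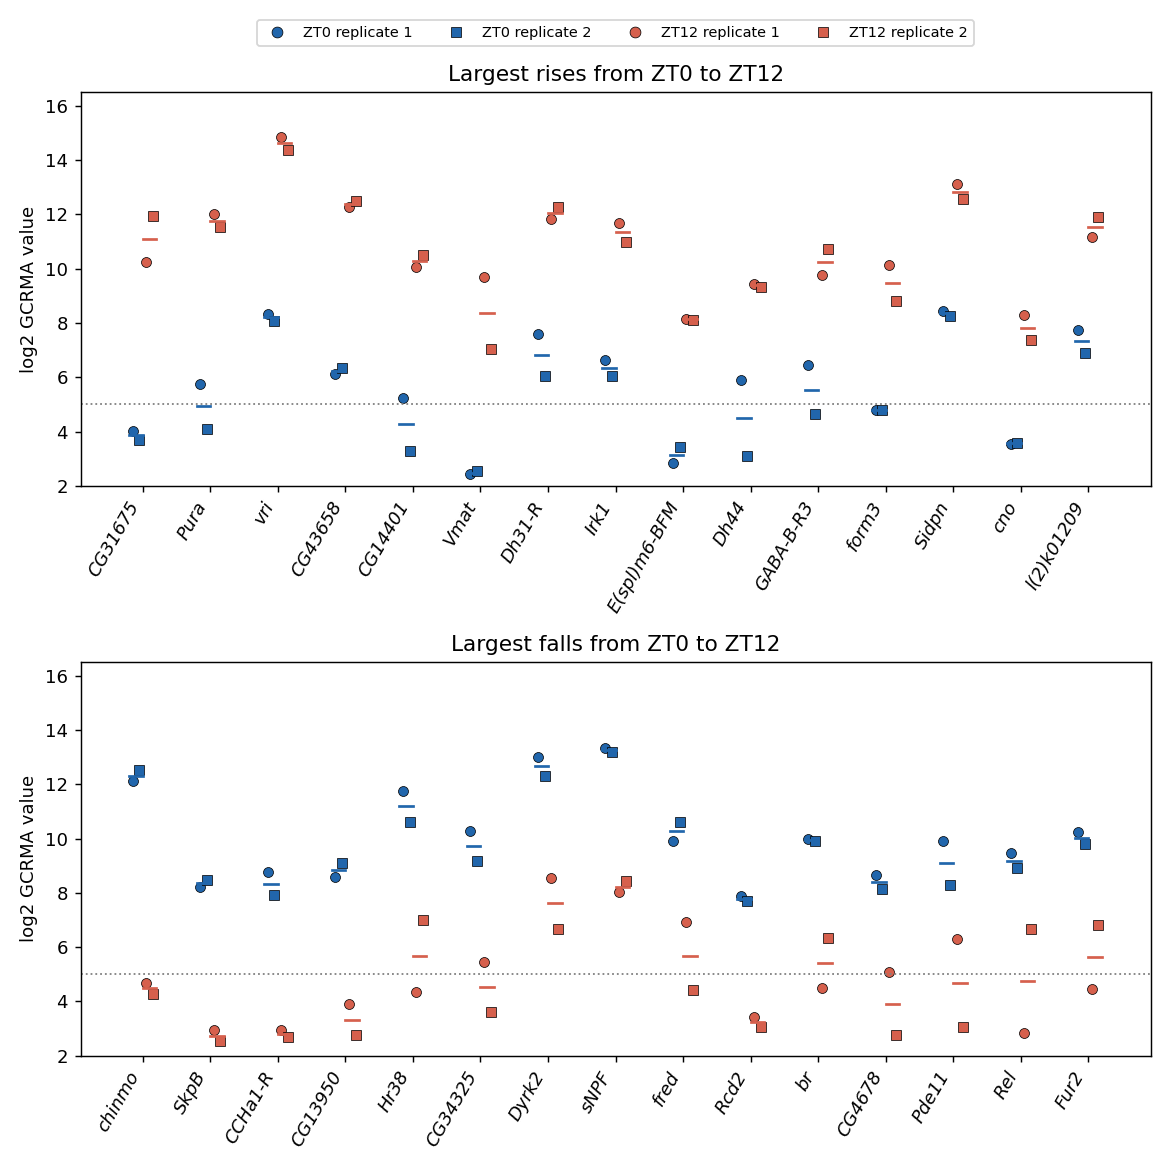
The 15 largest called rises and the 15 largest called falls among genes, with the log2 GCRMA value on each of the 4 small PDF arrays. Circles are replicate 1, squares replicate 2, short lines the mean of each time, and the dotted line marks log2 5. The ZT12 points of chinmo lie at 4.69 and 4.29, under its ZT0 points at 12.11 and 12.51.

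Of the core clock genes the repressor gene vri rose most. It was at 8.33 and 8.09 at ZT0 and at 14.85 and 14.39 at ZT12, a difference of 6.41 ± 0.69 (85.3-fold, adjusted p = 2.5e-05). tim, whose protein pairs with PER, was at 12.54 and 12.38 at ZT0 and at 14.66 and 14.65 at ZT12 (2.20 ± 0.54, adjusted p = 0.0296). Both genes were higher on both ZT12 arrays than on both ZT0 arrays. A second tim probe set rose from 5.80 and 6.36 to 11.25 and 10.09 (4.59 ± 0.81, adjusted p = 0.0030). This second probe set kept its call in every fit without 1 small PDF array, at the closest just under the threshold. Clk, the gene of the activator, moved the other way. It was at 12.69 and 12.33 at ZT0 and at 8.72 and 8.93 at ZT12, a fall of 3.68 ± 0.76 that amounts to 12.8-fold (adjusted p = 0.00913). The ubiquitin ligase gene ctrip, whose product acts on CLK, rose from 8.33 and 7.57 to 11.34 and 11.10 (3.28 ± 0.43, adjusted p = 0.000208). It was the 1 gene called among 11 measured kinases, phosphatases, ligases and translation factors of the clock, where 3.39% of all genes were called.

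The other 5 core clock genes were not called. Pdp1 stood at 1.34 ± 0.49 (adjusted p = 0.187), and its ZT12 arrays at 12.55 and 13.82 lay above the ZT0 arrays at 12.02 and 11.66. per was at 10.22 and 10.91 at ZT0 and at 12.18 and 10.88 at ZT12 (0.96 ± 0.63, adjusted p = 0.607). The times overlapped for per, since ZT12 replicate 2 lay between the 2 ZT0 arrays. cwo, a repressor gene driven by CLK, stood at 0.94 ± 0.45 (adjusted p = 0.386) and cyc at -0.25 ± 0.46. The photoreceptor gene cry was at 13.46 and 13.58 at ZT0 and at 12.19 and 11.94 at ZT12 (-1.46 ± 0.82, adjusted p = 0.508). The cry arrays of the 2 times did not overlap, but the fit's standard error, shared with all groups, was large for this probe set. Pdf itself was at 15.77 to 15.87 on all 4 arrays, at the top of the arrays' range, where a difference may be hidden. The call of tim on its higher probe set ended in all 4 fits without 1 array (highest adjusted p 0.168, without ZT0 replicate 2), and that of Clk in 3 of 4 (up to 0.0777, without ZT0 replicate 1). In large PDF neurons per rose by 3.66 ± 0.52 (adjusted p = 0.00155), but the difference between the kinds was not called (-2.69 ± 0.82, adjusted p = 0.17).

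**Figure D3:**
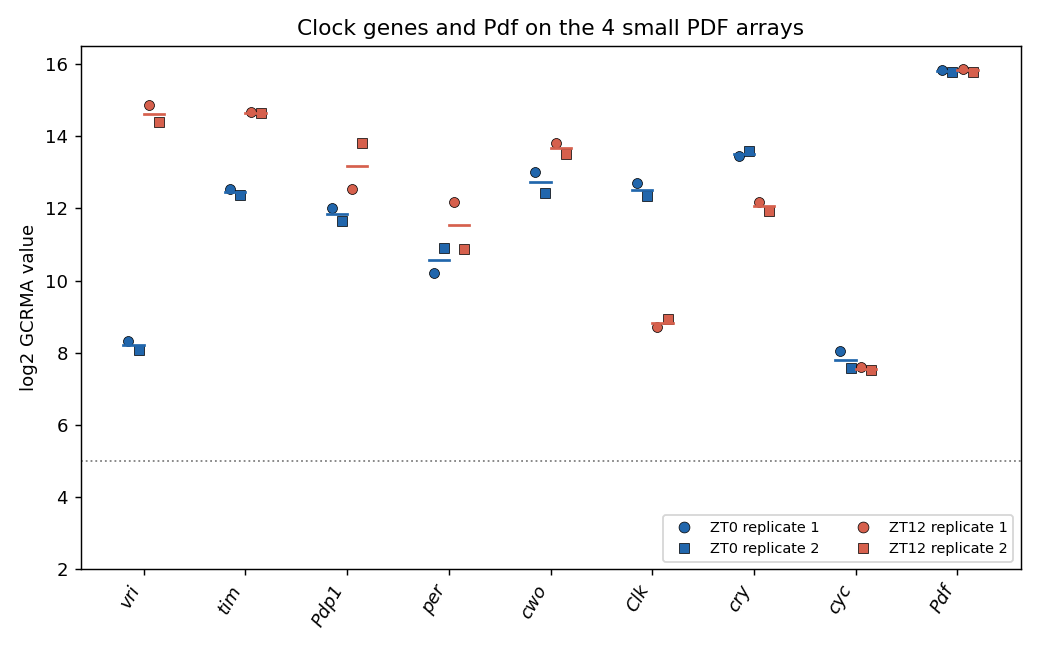
Log2 GCRMA values of the core clock genes and Pdf on the 4 small PDF arrays. Blue is ZT0, red ZT12, circles replicate 1, squares replicate 2, short lines the mean of each time, and the dotted line log2 5. vri lies near 8 at ZT0 and above 14 at ZT12, Clk moves down, and Pdf stays near 15.8.

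Receptors, precursors and processing enzymes of peptide signalling were among the called genes. Of 19 measured receptors for peptides and amines 4 rose and 1 fell, against 1.32% and 2.07% of all 6663 genes. The median difference of the 19 was 0.69, with 15 above 0, where the median over all genes was -0.01. Dh31-R, the gene of a receptor for the peptide DH31, was at 7.61 and 6.05 at ZT0 and at 11.82 and 12.29 at ZT12. This is a difference of 5.22 ± 0.58 (37.3-fold, adjusted p = 3.03e-05), and a second probe set of the gene rose by 2.83 ± 0.54. NPFR, the receptor gene for neuropeptide F, rose from 7.73 and 6.92 to 10.33 and 9.54 (2.61 ± 0.55, adjusted p = 0.0103). Pdfr rose from 4.55 and 4.16 to 5.69 and 6.89 (1.93 ± 0.34, adjusted p = 0.00296). The fifth called receptor gene after these and CCHa1-R was TkR86C, named after its values were seen, which rose by 1.48 ± 0.39 (adjusted p = 0.0459), a call lost in all 4 fits without 1 array (up to 0.212, without ZT12 replicate 2). CCHa1-R, the gene of a receptor for the peptide CCHamide-1, fell from 8.77 and 7.92 to 2.93 and 2.68, a difference of -5.54 ± 0.44 or at least 10.2-fold (adjusted p = 5.53e-07). Its 2 evening arrays were both near background. Without 1 array 2 to 4 of the receptor genes rose and 1 fell. The call of NPFR ended in 2 of 4 such fits (highest adjusted p 0.135, without ZT0 replicate 2).

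Of 18 measured neuropeptide genes 1 rose and 1 fell, where 1.32% of all genes rose and 2.07% fell. Their median was 0.15, and it ran from -0.16 without ZT12 replicate 1 to 0.95 without ZT12 replicate 2. Dh44, which encodes diuretic hormone 44, was at 5.89 and 3.09 at ZT0 and at 9.44 and 9.34 at ZT12 (4.90 ± 0.99, adjusted p = 0.00814). sNPF, the gene of short neuropeptide F, was at 13.34 and 13.19 at ZT0 and at 8.04 and 8.42 at ZT12. That fall of 5.04 ± 1.30 amounts to 32.9-fold (adjusted p = 0.0394). sNPF is also a marker of Kenyon cells, the neurons of the mushroom body. The 7 Kenyon cell genes, sNPF included, summed to 14.48 and 14.19 at ZT0 and to 12.91 and 13.61 at ZT12. The drop of that sum thus holds the fall of sNPF itself. toy, the highest of the other genes, was at 13.50 and 13.12 at ZT0 and at 12.71 and 13.53 at ZT12. Apart from sNPF only rut was lower on both ZT12 arrays than on both ZT0 arrays. sNPF was the 1 gene called among the 7, and the part of Kenyon cells in its fall was not tested. Dh31 was at 12.58 and 11.85 at ZT0 and at 13.27 and 13.71 at ZT12, which was not called (adjusted p = 0.805). The call of sNPF ended in all 4 fits without 1 array (highest adjusted p 0.194, without ZT12 replicate 1) and that of Dh44 in 2 of 4 (up to 0.153, without ZT0 replicate 2).

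Peptide processing had 3 of 10 measured genes lower, where 2.07% of all genes were, and none higher. Without 1 array 1 to 3 of them were called lower. Fur2, the gene of a furin-type convertase, was at 10.23 and 9.79 at ZT0 and at 4.44 and 6.83 at ZT12 (-4.38 ± 0.66, adjusted p = 0.000659). CG4678, a carboxypeptidase gene of that list, fell by 4.47 ± 0.98 (adjusted p = 0.0149). amon, the gene of the convertase that cuts many neuropeptide precursors, was at 14.50 and 14.18 at ZT0 and at 13.26 and 12.70 at ZT12 (-1.36 ± 0.33, adjusted p = 0.0296). amon thus stayed among the brighter probe sets at both times. The calls of CG4678 (highest adjusted p 0.142, without ZT12 replicate 2) and amon (up to 0.19, without ZT0 replicate 1) each ended in 3 of 4 fits without 1 array, and Fur2 kept its call in all 4. ome, a dipeptidyl peptidase gene, fell from 10.30 and 10.20 to 5.76 and 6.56 (-4.09 ± 0.94, adjusted p = 0.0207), a call lost in 3 of 4 fits (up to 0.153, without ZT12 replicate 1). Nepl20, the gene of a neprilysin-like peptidase, rose from 3.04 and 3.22 to 5.88 and 6.08, at least 1.97-fold (adjusted p = 0.00107).

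Genes of amine handling moved in both directions. Vmat, the vesicular monoamine transporter gene, was at 2.43 and 2.55 at ZT0 and at 9.70 and 7.05 at ZT12 (5.88 ± 0.62, adjusted p = 2.43e-05). A second of its 4 probe sets was called too, with 3.28 ± 0.68, and the other two stood at 1.12 and 0.28 without a call. Tdc2, the tyrosine decarboxylase gene of tyramine synthesis, rose from 7.06 and 6.18 to 10.80 and 9.19 (3.37 ± 0.64, adjusted p = 0.00525). Tbh, whose product turns tyramine into octopamine, fell from 10.74 and 10.72 to 7.69 and 8.14 (-2.81 ± 0.53, adjusted p = 0.00519). These 3 were the called genes among 7 measured markers of monoamine neurons. So 2 rose and 1 fell, where 1.32% of all genes rose and 2.07% fell. Of the 4 genes not called, the dopamine synthesis gene ple was at 2.92 to 3.99 and the decarboxylase gene Ddc at 9.90 to 11.07. The dopamine transporter gene DAT was at 5.72 and 8.39 at ZT0 and at 7.52 and 6.56 at ZT12. The serotonin transporter gene SerT was at 4.88 and 3.98 at ZT0 and at 7.57 and 5.20 at ZT12. The 7 genes summed to 11.62 and 11.59 at ZT0 and to 12.39 and 11.40 at ZT12. On ELAV arrays Vmat was at 14.58 to 14.83 and the sum was 15.11 to 15.63. On large PDF arrays Vmat was at 2.47 to 3.56. In such pooled cells, a larger share of cells of one type and more RNA per cell cannot be told apart. The call of Tdc2 ended in 2 of 4 fits without 1 array (highest adjusted p 0.0923, without ZT12 replicate 1) and that of Tbh in 1 (0.0584, without ZT12 replicate 1).

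Channels were mostly not called, with 1 clear exception among potassium channels. Irk1, the gene of an inwardly rectifying potassium channel, was at 6.62 and 6.04 at ZT0 and at 11.67 and 11.00 at ZT12 (5.01 ± 0.85, 32.2-fold, adjusted p = 0.00201). The other 13 measured potassium channel genes lay between -0.62 and 1.06 and none was called. Trpm, the gene of a divalent cation channel, rose from 5.26 and 4.74 to 8.38 and 9.09 (3.73 ± 0.81, adjusted p = 0.0137). Its other two probe sets also rose, by 2.51 and 2.27. Trpm was the 1 gene called among 16 sodium, calcium, leak and cation channels, and Irk1 the 1 among 14 potassium channels. Of all genes 3.39% were called. Of 16 receptor genes for acetylcholine, GABA and glutamate 1 rose and 1 fell, where 1.32% of all genes rose and 2.07% fell. GABA-B-R3, the gene of a metabotropic GABA receptor subunit, was at 6.47 and 4.63 at ZT0 and at 9.78 and 10.72 at ZT12 (4.70 ± 1.08, adjusted p = 0.0202). mGluR, the metabotropic glutamate receptor gene, fell from 5.99 and 5.38 to 3.56 and 3.13, at least 1.61-fold (adjusted p = 0.0015). Nhe2, a sodium-proton exchanger gene, fell from 5.87 and 6.52 to 2.54 and 2.88, at least 2.29-fold (adjusted p = 0.00966). The calls of Trpm (highest adjusted p 0.118) and GABA-B-R3 (up to 0.209) ended in 3 of 4 fits without 1 array and that of Nhe2 in 2 (up to 0.105), each with the highest value without ZT0 replicate 2.

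Among 13 measured genes of cyclic AMP signalling 3 fell and 1 rose, against 2.07% and 1.32% of all genes. The list's median was -0.73, and it was -1.34 without ZT12 replicate 1 and -0.40 without ZT12 replicate 2. Ac13E, an adenylyl cyclase gene, was at 13.76 and 13.42 at ZT0 and at 11.82 and 11.90 at ZT12 (-1.73 ± 0.34, adjusted p = 0.00635). rg, the gene of an anchor for protein kinase A, fell by 1.78 ± 0.42 (adjusted p = 0.0234). The phosphodiesterase genes called went opposite ways. Pde11, whose product degrades both cyclic nucleotides, was at 9.92 and 8.3 at ZT0 and at 6.31 and 3.07 at ZT12 (-4.42 ± 1.0, adjusted p = 0.0184). Pde6, which encodes a cyclic GMP phosphodiesterase, was at 6.66 and 8 at ZT0 and at 9.65 and 10.35 at ZT12 (2.67 ± 0.53, adjusted p = 0.00711). Calls ended in 1 of 4 fits without 1 array for Ac13E (adjusted p 0.0751, without ZT0 replicate 1) and in 3 for rg (up to 0.21, without ZT12 replicate 1). They ended in 2 for Pde11 (up to 0.188, without ZT12 replicate 2) and in 2 for Pde6 (up to 0.119, without ZT0 replicate 1). Without ZT0 replicate 1 no gene of the list was called. Dyrk2, a protein kinase gene, fell from 13.02 and 12.30 to 8.54 and 6.67 (-5.05 ± 0.72, 33.2-fold, adjusted p = 0.000391) and kept its call in all 4 fits.

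Neuronal activity is known to induce Hr38, a nuclear receptor gene, and sr, a zinc finger gene of the Egr family. Hr38 was at 11.75 and 10.62 at ZT0 and at 4.36 and 7 at ZT12 (-5.50 ± 1.07, adjusted p = 0.00619). Its second probe set fell by 3.62 ± 0.51 (adjusted p = 0.000391) and kept its call in every fit without 1 small PDF array. sr was at 9.11 and 8.96 at ZT0 and at 5.62 and 5.85 at ZT12 (-3.30 ± 0.74, adjusted p = 0.0178). Both were thus lower on both evening arrays than on both morning arrays. Mkp3, the gene of a phosphatase that switches off ERK, rose from 10.04 and 8.79 to 11.97 and 12.43 (2.78 ± 0.60, adjusted p = 0.0130). The other 11 of the 14 measured activity-regulated and stress-kinase genes were not called, among them Arc1 at 0.30, kay at -0.66 and Jra at -0.32. So 1 of the 14 rose and 2 fell, where 1.32% of all genes rose and 2.07% fell. Without 1 array the list had 0 to 1 rises and 0 to 1 falls. The call of sr ended in all 4 such fits (highest adjusted p 0.109), and that of Hr38 in 2 (up to 0.106), both highest without ZT12 replicate 1. The call of Mkp3 ended in 2 (up to 0.188, without ZT0 replicate 2).

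Of 18 measured transcription factor genes of neuronal identity 3 fell, against 2.07% of all genes, and none rose. Without 1 array 1 to 2 fell, 1 in 3 of the 4 fits. The largest called fall was that of chinmo, the gene of a BTB zinc finger protein that sets the temporal identity of newborn neurons. It was at 12.11 and 12.51 at ZT0 and at 4.69 and 4.29 at ZT12, a difference of -7.82 ± 0.66 or at least 159-fold (adjusted p = 1.47e-06). Its second probe set fell from 11.97 and 11.96 to 5.94 and 4.17 (-6.91 ± 0.79). The evening values of chinmo were thus near background on both arrays of the higher probe set. br, an ecdysone-response gene of the same BTB zinc finger class, was at 9.98 and 9.92 at ZT0 and at 4.51 and 6.32 at ZT12 (-4.53 ± 1.01, adjusted p = 0.0165). fru, another BTB zinc finger gene and known for its role in courtship circuits, was at 9.60 and 9.33 at ZT0 and at 6.22 and 4.87 at ZT12 (-3.92 ± 0.99, adjusted p = 0.0341). All 3 probe sets of fru and all 3 of br had negative differences, though 1 of each was called. Rel, the gene of an NF-kappaB factor of immunity, fell from 9.45 and 8.90 to 2.83 and 6.68 (-4.42 ± 1.04, adjusted p = 0.0231). chinmo kept its call in all 4 fits without 1 array. The call of fru ended in all 4 (highest adjusted p 0.184, without ZT12 replicate 2), and those of br (up to 0.184) and Rel (up to 0.351) in 3 of 4, highest without ZT12 replicate 1.

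A gene pair of Hairy-type repression and Notch signalling was among the largest rises. Sidpn, a bHLH repressor gene related to deadpan, was at 8.46 and 8.26 at ZT0 and at 13.13 and 12.55 at ZT12 (4.48 ± 0.75, 22.3-fold, adjusted p = 0.0020). E(spl)m6-BFM, a Bearded family gene of the Enhancer of split complex, was at 2.86 and 3.43 at ZT0 and at 8.16 and 8.12 at ZT12. Its rise of 5.0 ± 0.29 is at least 8.84-fold (adjusted p = 9.57e-09). None of the 4 measured genes of the list of Notch and Hairy-type repressors was called by limma, where 3.39% of all genes were. Their differences ran from -0.51 to 0.96, and 0 had an unadjusted p under 0.05, against 1098 of all 8318 probe sets. Those 4 were hry, H, neur and mam, and E(spl)m6-BFM and Sidpn were not on that list. Both Sidpn and E(spl)m6-BFM kept their calls in all 4 fits without 1 array.

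Pura, a gene tied in the fly to the daily change in the shape of PDF terminals, had the second largest called rise among genes. It was at 5.77 and 4.11 at ZT0 and at 12.02 and 11.52 at ZT12 (6.83 ± 0.76, adjusted p = 3.03e-05). The other 4 measured genes of arbor remodelling were not called, with the matrix protease gene Mmp2 at 0.44, its inhibitor gene Timp at 1.75, futsch at -0.51 and trio at -0.70. Of genes that act on actin or junctions, cno, the afadin gene, rose from 3.55 and 3.59 to 8.3 and 7.36, at least 7.11-fold (adjusted p = 3.03e-05). The formin gene form3 rose from 4.81 and 4.78 to 10.14 and 8.82 (4.69 ± 0.87, adjusted p = 0.00434). fred, the gene of an adhesion protein of the Echinoid type, fell from 9.92 and 10.60 to 6.92 and 4.43 (-4.59 ± 0.86, adjusted p = 0.00464). None of 20 measured axon guidance and adhesion genes of the list used was called by limma, where 3.39% of all genes were. An unadjusted p under 0.05 was found for 3 of them, against 1098 of all 8318 probe sets. Calls ended in 1 of 4 fits without 1 array for form3 (adjusted p 0.064, without ZT12 replicate 1) and in 2 for fred (up to 0.0668, without ZT12 replicate 2). Of 19 synaptic vesicle and active zone genes 1 rose, where 1.32% of all genes did. This was the synaptotagmin gene Sytbeta, at 5.06 and 4.38 and then at 7.93 and 6.74 (2.62 ± 0.52, adjusted p = 0.00745), a call lost in 2 of 4 fits (up to 0.116, without ZT12 replicate 1). Rab3-GEF, the exchange factor gene for the vesicle protein RAB3, fell by 1.66 ± 0.44 (adjusted p = 0.0438), a call lost in 3 of 4 fits (up to 0.483, without ZT12 replicate 1).

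Respiratory chain and ATP synthase genes shifted down by small amounts in the evening. Of 56 measured members 8 fell and none rose, which is 14.3% called against 3.39% of all genes. The list's median difference was -0.93, and 51 of the 56 were below 0, where 50.4% of all genes were. In 43 of the 56 both ZT12 arrays lay below both ZT0 arrays, an ordering that 21.4% of all genes showed. The median level of the 56 was 10.90 and 11.05 on the ZT0 arrays and 10.28 and 9.79 on the ZT12 arrays. The called members were 5 subunits of ATP synthase, 2 of complex I and 1 of complex II. ATPsynC was at 14.13 and 13.74 at ZT0 and at 12.45 and 12.39 at ZT12 (-1.52 ± 0.33, 2.86-fold, adjusted p = 0.0129). ATPsynD fell from 12.02 and 11.98 to 10.56 and 10.37 (-1.53 ± 0.32, adjusted p = 0.0109). ATPsyndelta fell by 1.61 ± 0.39 (adjusted p = 0.0284) and ATPsynO by 1.46 ± 0.36 (adjusted p = 0.0296). The 4 others, named after their values were seen, were ATPsyngamma (-1.34), ND-B14 (-1.38), ND-B22 (-1.39) and SdhB (-1.40). Leaving out 1 array left 0 to 2 called falls but a median of -0.78 to -0.94. The calls of ATPsynO (highest adjusted p 0.191), ATPsynC (up to 0.123) and ATPsynD (up to 0.0753), each highest without ZT0 replicate 1, ended in 3 of 4 such fits. That of ATPsyndelta ended in all 4 (up to 0.191, without ZT0 replicate 2). In large PDF neurons the median of the same list was -0.53 with 1 fall, where 1.26% of all genes fell.

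Mitochondrial ribosomal protein genes lay on the same side. Of 69 measured members 3 fell and none rose, so that 4.35% were called, near the 3.39% of all genes. Their median was -0.69 with 59 below 0, and it was -0.43 without ZT12 replicate 2 and -0.87 without ZT12 replicate 1. Both ZT12 arrays lay below both ZT0 arrays in 32 of them, where 21.4% of all genes showed that order. mRpL41 fell by 2.6 ± 0.56, mRpL10 by 2.46 ± 0.50 and mRpS2 by 1.97 ± 0.49. mRpL10 for example was at 8.24 and 9.12 at ZT0 and at 6.03 and 6.41 at ZT12 (adjusted p = 0.00873). The calls of mRpL41 (highest adjusted p 0.142, without ZT12 replicate 2) and mRpL10 (up to 0.13, without ZT0 replicate 2) ended in 2 of 4 fits without 1 array and that of mRpS2 in 3 (up to 0.287, without ZT0 replicate 2). Each such fit had 1 to 2 called falls in the list. Gpdh1, the glycerol phosphate dehydrogenase gene, fell from 11.89 and 11.66 to 9.68 and 8.65 (-2.61 ± 0.39, 6.12-fold, adjusted p = 0.000659). It was the 1 gene called of 10 in glycolysis and glycerol phosphate metabolism, where 3.39% of all genes were called. All 4 of its probe sets fell. The 30 cytosolic ribosomal protein genes had a median of -0.12, the 26 proteasome genes 0.10, and neither list had a call by limma (0 and 1 at an unadjusted p under 0.05). The proteasome median changed sign with the array left out, from -0.32 without ZT12 replicate 1 to 0.32 without ZT12 replicate 2. Cytosolic ribosomal proteins were not even across arrays, since RpL39 was at 11.59 on ZT12 replicate 1 and at 14.19 to 14.35 on the other 3. No gene was called among 11 chaperones, 18 autophagy genes, 17 vacuolar ATPase subunits, 36 translation factors or 6 genes known to cycle in whole heads. At an unadjusted p under 0.05 by limma these lists had 3, 2, 1, 0 and 0 genes. Of all 8318 probe sets 1098 had such a p-value, and 3.39% of all genes were called.

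**Figure D4:**
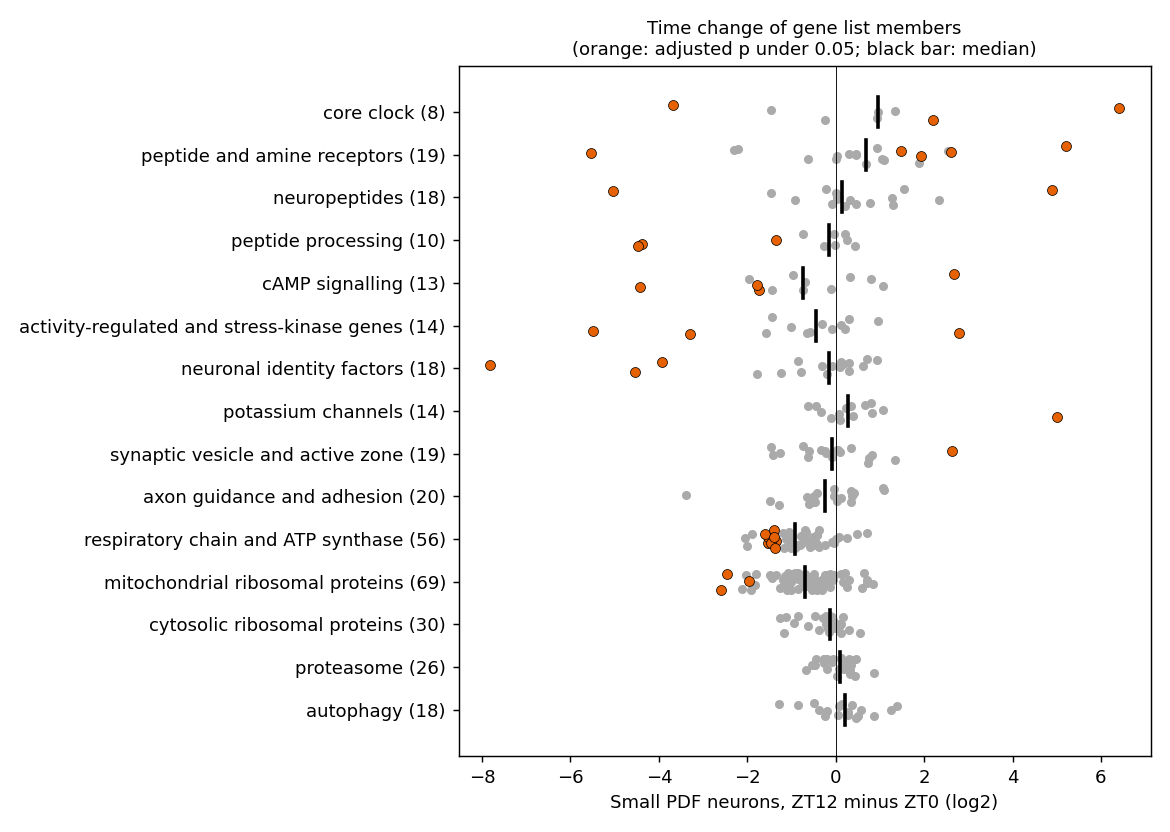
ZT12 minus ZT0 difference (log2) of each measured member of 15 gene lists in small PDF neurons, with the number of members in brackets. Orange points passed an adjusted p of 0.05, grey points did not, and black bars are medians. The respiratory chain list lies mostly to the left of 0 with a median of -0.93, while the calls of the receptor and core clock lists lie on both sides.

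Genes known only by number were among the largest changes. CG31675 had the largest called rise, from 4.02 and 3.70 to 10.23 and 11.94 (7.23 ± 0.39, adjusted p = 5e-09). CG43658 was at 6.13 and 6.35 at ZT0 and at 12.27 and 12.51 at ZT12 (6.15 ± 0.45, 70.9-fold, adjusted p = 2.66e-07). Both were higher on both evening arrays and kept their calls in all 4 fits without 1 array. CG14401 rose by 6.02 ± 1.05, a call lost in 1 fit (adjusted p 0.0559, without ZT0 replicate 2). CG13950 fell from 8.57 and 9.10 to 3.89 and 2.77, at least 14.3-fold (adjusted p = 0.00152). CG34325 fell from 10.29 and 9.18 to 5.47 and 3.60 (-5.20 ± 0.64, adjusted p = 9.13e-05). Of other named genes with large changes, SkpB, a member of the Skp1 family of ubiquitin ligase subunits, fell by at least 10.2-fold, a call lost in 1 fit (adjusted p 0.0622, without ZT0 replicate 2). Rcd2 fell from 7.89 and 7.69 to 3.41 and 3.05, at least 6.91-fold (adjusted p = 1.76e-05). CBP, the gene of a calcium-binding protein, fell from 8.58 and 8.57 to 3.02 and 5.73 (-4.20 ± 0.93), a call lost in 3 of 4 fits (up to 0.24, without ZT12 replicate 1). l(2)k01209 rose by 4.19 ± 1.01, a call lost in all 4 fits (up to 0.197, without ZT0 replicate 2). Where a called gene had several measured probe sets, these had the same sign in 37 of 40 genes, and in all 14 genes with several called probe sets the calls had the same direction.

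Small and large PDF neurons shared part of the evening change. Large PDF neurons had 182 calls (2.19% of probe sets), 82 higher (0.986%) and 100 lower (1.2%). Both kinds called 18 probe sets higher, which is 15.8% of the small PDF rises and 22% of the large PDF rises. They called 24 lower, 14.3% of the small and 24% of the large PDF falls. Of the 282 probe sets called in small PDF neurons 217 had the same sign in large PDF neurons, and 177 had a large PDF difference smaller than 1 in size. The share of all probe sets with the same sign was not counted, so the 217 have no baseline here. Across the 8318 probe sets the small PDF difference correlated at 0.244 with the large PDF difference and at 0.0326 with the ELAV difference. Among the 282 calls these correlations were 0.613 and 0.162. The 282 were picked by their small PDF difference, and such a choice can by itself raise a correlation. The kinds share no array, but probe sets are not independent replicates. vri rose in large PDF neurons by 6.29, against 6.41 in small PDF neurons, and Clk fell by 3.99, against 3.68. The differences between the kinds for these were 0.12 ± 0.89 and 0.31 ± 0.98. Irk1 and Sidpn also rose in large PDF neurons, by 5.53 and 5.11, and Pde11 fell by 4.46.

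The difference of the time change between small and large PDF neurons was tested directly, and 58 probe sets passed (0.697%). In 20 (0.24%) the small PDF change lay above the large PDF change and in 38 (0.457%) below. Of the 282 small PDF calls 45 differed from large PDF neurons. Those named here were taken from these 45, so their small PDF change was already large. Vmat was at 2.90 and 2.92 (means at ZT0 and ZT12) in large PDF neurons, and its time change was 5.86 ± 0.81 higher in small PDF neurons (adjusted p = 0.00146). Dh31-R was already at 10.63 at ZT0 in large PDF neurons and at 11.71 at ZT12, which left a difference of 4.14 ± 0.75 (adjusted p = 0.0123). E(spl)m6-BFM differed by 4.95 ± 0.38 (adjusted p = 7.39e-07). Nepl20 was called in opposite directions, higher at ZT12 in small and lower in large PDF neurons, and was the only such probe set (5.21 ± 0.58, adjusted p = 0.00016). GAPsec, the gene of a GTPase-activating protein, rose by 2.73 in small PDF neurons and stood at -1.87 in large ones (4.6 ± 0.77, adjusted p = 0.00722). app, a palmitoyltransferase gene, rose from 9.51 and 9.12 to 11.65 and 12.03 in small PDF neurons and was at 12.48 and 12.73 in large ones (2.27 ± 0.47, adjusted p = 0.0291).

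CG31675 differed most upward of the genes named here (7.06, adjusted p = 5.05e-07), and CG34325 differed by -5.41 (adjusted p = 0.0036). The most negative differences from large PDF neurons among genes with more than a CG number began with ome. It differed by -6.09 ± 1.22 (adjusted p = 0.0218), with a large PDF difference of 2.00 that was not called. jeb, the gene of the ligand of the receptor kinase ALK, fell from 11.13 and 9.98 to 8.15 and 7.67 in small PDF neurons and stood at 1.92 in large ones (-4.57 ± 0.91, adjusted p = 0.0218). Dyrk2 also differed by -4.57, with 0.93 as its standard error (adjusted p = 0.0245). chinmo fell in both kinds, by 7.82 in small and by 3.48 in large PDF neurons, and the 2 falls differed (-4.34 ± 0.86, adjusted p = 0.0215). Rcd2 differed by -4.12 ± 0.60 (adjusted p = 0.00224). hlk fell from 5.78 and 7.44 to 2.70 and 2.79 in small PDF neurons and stood at 0.04 in large ones (-3.91 ± 0.50, adjusted p = 0.00073). In the small PDF contrast the call of jeb ended in all 4 fits without 1 array (highest adjusted p 0.319, without ZT0 replicate 1), and that of GAPsec in 2 (up to 0.223, without ZT0 replicate 2). The difference from large PDF neurons was also fitted 10 times without 1 array of either kind. Its call held in all 10 for Vmat, E(spl)m6-BFM, Nepl20, GAPsec, Rcd2 and hlk. It ended in 7 for app (highest adjusted p 0.147, without small PDF ZT0 replicate 2) and in 1 for Dh31-R (0.0749, without the same array). It ended in 4 for Dyrk2 (up to 0.107) and in 3 for jeb (up to 0.115), both highest without small PDF ZT0 replicate 1. For ome it ended in 3 (up to 0.0965, without small PDF ZT12 replicate 1). For chinmo it ended in 3, at 0.0515 and 0.0722 without small PDF ZT12 replicate 1 and 2 and at 0.094 without ZT0 replicate 2. The chinmo difference also missed the threshold with array weights (adjusted p = 0.0597). With only the small and large PDF arrays in the fit, the calls of E(spl)m6-BFM and Nepl20 alone held among these 12 genes, and chinmo stood at an adjusted p of 0.171.

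**Figure D5:**
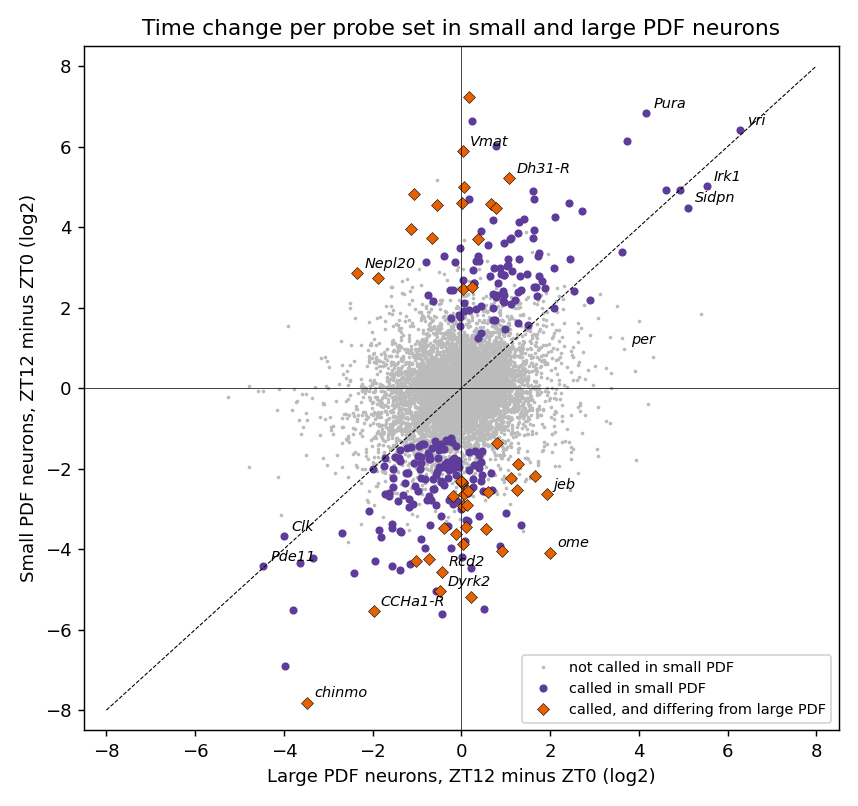
ZT12 minus ZT0 difference (log2) of the 8318 probe sets in small PDF neurons (vertical axis) against large PDF neurons (horizontal axis). Grey points were not called in small PDF neurons, purple points were, and orange diamonds were called there and also differed from large PDF neurons. vri, Irk1, Sidpn, Clk and Pde11 lie near the diagonal of equal change, and Vmat, Rcd2 and Dyrk2 near the vertical line of no change in large PDF neurons.

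General neurons showed almost no evening change on these arrays. ELAV neurons had 2 calls, or 0.024%, 1 in each direction (0.012% each), and 339 probe sets (4.08%) with an unadjusted p under 0.05 by limma. The time change differed between small PDF and ELAV neurons for 94 probe sets (1.13%), 41 above (0.493%) and 53 below (0.637%). Of the 282 small PDF calls 88 differed from ELAV neurons and 33 from both other kinds. CG31675 had the largest positive difference among the genes named here (7.25, adjusted p = 3.26e-07), and CG43658 stood at 6.08. Among genes with more than a CG number the largest were Pura (6.26, adjusted p = 0.0022), Vmat (5.90), E(spl)m6-BFM (5.12), Sidpn (4.75), Irk1 (4.72) and form3 (4.72). The most negative of these were chinmo (-7.41, adjusted p = 0.000131), CCHa1-R (-5.63), CBP (-5.38), Nhe2 (-4.96), Rcd2 (-4.81) and Dyrk2 (-4.59). CG34325 (-7.32) and CG13950 (-5.56) were also called. Among the 12 genes with a name, 6 kept the call in all 10 fits without 1 small PDF or ELAV array, namely Pura, Vmat, E(spl)m6-BFM, chinmo, CCHa1-R and Rcd2. It ended in 9 fits for form3 (highest adjusted p 0.2) and in 6 for CBP (up to 0.18), both highest without small PDF ZT12 replicate 1. It ended in 8 for Irk1 (up to 0.161), in 4 for Sidpn (up to 0.0858) and in 1 for Nhe2 (0.0627), each highest without small PDF ZT0 replicate 2. For Dyrk2 it ended in 3 (up to 0.0975, without small PDF ZT0 replicate 1). Irk1, form3 and CBP also missed the threshold with wild-type arrays only (adjusted p 0.0781, 0.0797 and 0.0718). Vmat was at 14.70 and 14.68 in ELAV neurons at the 2 times, so that its evening level in small PDF neurons stayed below theirs.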

How the data were processed

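Adult Drosophila brain neurons were profiled on Affymetrix expression arrays, 1 array per sample, from RNA amplified in 2 rounds of T7 transcription, per the labels' protocols. The log2 values used are those deposited by the authors, and the submitters' processing notes name GCRMA and R 2.6. GCRMA subtracts a background predicted from probe sequence, gives arrays 1 shared distribution and combines the probes of a probe set. The sources used here do not state whether all arrays were normalized in 1 run. Array medians were 2.57 to 2.59 on the per01 arrays and 3.13 to 3.44 on the others, so the arrays did not all share 1 distribution. Of 18952 probe sets 183 controls were removed and 8318 kept at log2 5 or more on at least 2 of 24 arrays. The number of arrays limits the precision.

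Each of 10 groups of kind, genotype and time had its own mean in limma 3.58.1 (R 4.3.3), with 14 residual and 3.62 prior degrees of freedom. Contrasts were ZT12 minus ZT0 within a kind, and differences of these between kinds. P-values were adjusted by Benjamini-Hochberg over all kept probe sets. A gene stands for its kept probe set with the highest mean over 24 arrays. Platform annotation gave 13647 probe sets 1 symbol, 402 several and 4720 none. Symbols were updated through Entrez ids to RefSeq (Release 6 plus ISO1 MT) for 13544 of them, and 7217 kept probe sets named 6663 genes.

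Named genes were 8 core clock genes and Pdf, the 12 largest rises and 12 largest falls of genes with a name, and 3 in each direction with a CG number alone. To these were added, from each list, at most 4 called members, and the 6 largest differences each way from large PDF and from ELAV neurons among called genes with a name, leaving out CG numbers. Members and lists were chosen with earlier results of these data known.

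The procedure was tested on simulated data. Alternatives changed the arrays in the fit, the filter, the scaling, the variance model, the block and the arrays left out. Same-numbered small PDF arrays of the 2 times did not deviate together (correlation -0.0277), so numbers were not taken as pairs.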

Additional observations from a re-analysis of the deposited data

Results flagged for a closer look

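The change from ZT0 to ZT12 differed between small and large PDF neurons for 58 probe sets, and between small PDF and ELAV neurons for 94, by limma's test of the difference itself. The genes below differed by that test and were chosen among genes whose small PDF change was itself called, so their sizes lean to the large side. Genes with a CG number alone were left out. Against large PDF neurons the change in small PDF neurons was higher for Vmat (5.86 on the log2 scale), Nepl20 (5.21), E(spl)m6-BFM (4.95), GAPsec (4.6), Dh31-R (4.14) and app (2.27). It was lower for ome (-6.09), jeb (-4.57), Dyrk2 (-4.57), chinmo (-4.34), Rcd2 (-4.12) and hlk (-3.91). In 10 fits that each left out 1 small or large PDF array, this call ended for app (highest adjusted p 0.147), jeb (0.115), Dyrk2 (0.107), ome (0.0965), chinmo (0.094) and Dh31-R (0.0749) in at least 1, and held for the other 6 genes in all.

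Against ELAV neurons it was higher for Pura (6.26), Vmat (5.90), E(spl)m6-BFM (5.12), Sidpn (4.75), Irk1 (4.72) and form3 (4.72). It was lower for chinmo (-7.41), CCHa1-R (-5.63), CBP (-5.38), Nhe2 (-4.96), Rcd2 (-4.81) and Dyrk2 (-4.59). Vmat, E(spl)m6-BFM, chinmo, Rcd2 and Dyrk2 appear in both sets. In 10 fits that each left out 1 small PDF or ELAV array, the call ended for form3 (highest adjusted p 0.2), CBP (0.18), Irk1 (0.161), Dyrk2 (0.0975), Sidpn (0.0858) and Nhe2 (0.0627) in at least 1, and held for the other 6 genes in all. Within a group of 2 or 3 arrays no test for an outlying array was made.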

How the results depend on the processing

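The small PDF calls kept their sign under every setting that tested them, which for most settings was fixed in advance. Changes of the filter, the variance model, the block or the arrays of other kinds left the small PDF difference itself as it was. With the filter at log2 7, or with 1 probe set per gene, 226 of the 282 were tested. In all 282 the arrays of the 2 times did not overlap, so leaving out 1 array or raising values under 5 to 5 could not turn a sign. Only the changes of scaling could have done so. The number of calls was 208 to 362 under other filters, scalings and variance models and without the per01 arrays. It was 0 with only the small PDF arrays in the fit (877 at an unadjusted p under 0.05, limma) and 133 to 254 without 1 small PDF array. The difference from large PDF neurons had 58 calls, 5 with only the 2 kinds in the fit, 110 with values under 5 raised to 5, and 42 to 76 without 1 array. The difference from ELAV neurons had 94 calls, 41 with only the 2 kinds, 59 with wild-type arrays only, 178 with values under 5 raised to 5, and 53 to 93 without 1 array. With the replicate number as a block in the fit of all arrays there were 260, 56 and 77 calls, and 250 of the 282 were still called. With that block and only the kinds compared there were 0 (778 at an unadjusted p under 0.05, limma), 0 (618) and 13. The numbers pair no samples here. Median centring moved the median difference from ELAV neurons from -0.13 to 0.03 and changed the split of its calls from 41 higher and 53 lower to 44 and 40. Of 70 genes named by the rule 40 lost their call in at least 1 of 4 fits without 1 small PDF array, and 24 kept it in all 4. The cause of these changes was not tested. Each time has 2 arrays, so small differences were mostly not detectable, and values under 5 limit what can be said of low genes.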

Other observations

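Further called genes, chosen after their values were seen, lie outside the gene lists. DIP-iota, an immunoglobulin-family recognition gene, was at 6.56 and 5.69 at ZT0 and at 2.77 and 2.59 at ZT12 (-3.45 ± 0.35, adjusted p = 1.77e-05 by limma). The immunoglobulin-family genes tei (-2.42), sdk (-2.36) and klg (-3.37) fell too, and klg lost its call in 3 of 4 fits without 1 small PDF array (adjusted p up to 0.279). DIP-beta, of the same family as DIP-iota, rose by 2.43 ± 0.64, a call lost in all 4 fits (up to 0.231), and a second of its 3 probe sets rose by 3.21 and kept its call in all 4. uzip rose from 8.14 and 7.48 to 11.38 and 10.63 (3.20 ± 0.43, adjusted p = 0.000212). The gene of the protease kuz, known for cutting Notch and adhesion proteins, fell from 11.87 and 11.84 to 9.37 and 9.81 (-2.27 ± 0.49, adjusted p = 0.0137), a call lost in 3 of 4 fits (up to 0.116).

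Other called falls, picked from the calls and not from a list, were the citric acid cycle genes mAcon1 (-1.75) and Idh3a (-1.30), the glutamate dehydrogenase gene Gdh (-1.31), the carrier genes Ant2 (-2.65) and Dic1 (-1.48) and the import gene Tim8 (-2.37). Idh, the isocitrate dehydrogenase gene, fell from 13.18 and 13.09 to 10.75 and 11.07 (-2.23 ± 0.57, adjusted p = 0.0365). Argk1, the arginine kinase gene of energy buffering, fell from 13.59 and 13.62 to 12.06 and 11.17 (-1.99 ± 0.38, adjusted p = 0.00564). None of these 8 calls held in all 4 fits without 1 small PDF array. That of Argk1 ended in 1 (adjusted p 0.0688) and the others in 3 or 4 (up to 0.385 for Tim8). Cipc, related to a mammalian inhibitor of CLOCK, rose by 2.00 ± 0.53 (adjusted p = 0.045), a call lost in 3 of 4 fits (up to 0.425). All 4 probe sets of CG34353 rose, by 3.61 to 4.12, and 2 of them kept their call in all 4 fits.

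Single arrays stood apart for some genes. Probe sets whose 2 replicate arrays lay more than 4 apart numbered 23 at ZT0 and 46 at ZT12, and AstC was among the former. RpL39, RpL15 and RpS29 were lower on ZT12 replicate 1 than on the other 3 arrays, RpL15 at 11.87 against 14.04 to 14.48.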
